A study of Mus musculus with 6 samples.

Results

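The enzymes of purine nucleotide synthesis, with 1 enzyme each of salvage and breakdown, 10 in all, were examined in mouse liver to ask whether Pfas, the enzyme of the fourth step, differed between strains without its pathway partners. The set was built around Pfas, which was chosen by its log2 difference between the strains in these same arrays, and the other 9 genes were added by their place in the pathway. The strain differences of the set are therefore given as a description, with no p-value. Members were found by their gene symbol in the annotation of the array platform, an Affymetrix mouse expression array that reads transcripts near their 3′ end. This gave 19 probe sets for 9 members, out of 45037 probe sets and 18194 genes in all, and Impdh2 was not analysed here. The liver samples came from male mice, 18 weeks old and fed ordinary chow, with 3 arrays of BKS (titled wild type) and 3 of NZO, the New Zealand Obese mouse, an inbred model of obesity and diabetes. No animal was treated. The strains are separate inbred backgrounds that differ at many loci, so a difference belongs to the strain and to its metabolic state together. Values are log2 RMA expression, and every log2 fold change below is NZO minus BKS.

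Purine rings are built on phosphoribosyl pyrophosphate (PRPP) in a chain of reactions that ends in inosine monophosphate (IMP). Ppat opens the chain by placing an amino group from glutamine on PRPP. The trifunctional protein Gart carries the next steps, Pfas brings in a further nitrogen from glutamine, and Paics, Adsl and the bifunctional Atic complete IMP. Impdh2 and Gmps then lead to GMP, Adsl acts again on the way to AMP, Hprt salvages hypoxanthine and guanine, and Xdh oxidises hypoxanthine and xanthine to uric acid. In cells the synthesis enzymes are known to assemble into a complex, and the liver is a main site of purine synthesis for the body.

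The promoter windows of 3 members are printed because Ppat and Paics are neighbours whose windows lie close together, and because Paics and Atic carry the hexamer CACGTG, an E-box that MYC and related factors are known to bind. Each window runs from 250 bases before to 50 bases after the annotated gene start, 5′ to 3′ on the gene's strand, from RefSeq on GRCm38.p6, and capitals mark the hexamer. The windows are chr5:76951052-76951351 on the plus strand for Paics, chr5:76951529-76951828 on the minus strand for Ppat, and chr1:71556906-71557205 on the plus strand for Atic.
Paics: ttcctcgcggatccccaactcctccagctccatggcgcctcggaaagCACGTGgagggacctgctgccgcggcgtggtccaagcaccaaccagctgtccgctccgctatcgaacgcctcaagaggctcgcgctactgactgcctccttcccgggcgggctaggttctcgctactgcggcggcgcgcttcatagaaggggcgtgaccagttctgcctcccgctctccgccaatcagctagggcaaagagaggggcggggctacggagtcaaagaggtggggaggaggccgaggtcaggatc
Ppat: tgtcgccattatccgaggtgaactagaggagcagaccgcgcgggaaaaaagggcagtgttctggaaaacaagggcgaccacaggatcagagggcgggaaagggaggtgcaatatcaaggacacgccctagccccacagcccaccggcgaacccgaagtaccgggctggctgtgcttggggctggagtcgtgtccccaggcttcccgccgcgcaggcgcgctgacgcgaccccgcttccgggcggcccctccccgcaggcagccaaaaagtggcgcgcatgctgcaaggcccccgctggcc
Atic: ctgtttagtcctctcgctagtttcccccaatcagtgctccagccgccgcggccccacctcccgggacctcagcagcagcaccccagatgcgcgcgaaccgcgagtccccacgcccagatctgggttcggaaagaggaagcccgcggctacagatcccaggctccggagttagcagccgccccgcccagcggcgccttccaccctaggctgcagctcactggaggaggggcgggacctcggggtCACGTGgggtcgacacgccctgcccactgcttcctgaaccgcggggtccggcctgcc
The windows of Paics and Ppat lie 177 bases apart on opposite strands. The hexamer, which reads the same on both strands, begins 203 bases before the start in Paics and 7 bases before it in Atic. Windows were found for 8 members, not for Pfas or Xdh, and 3 of the 8 held the hexamer, the other being Impdh2, against 7.15% of 32851 windows of the same length.

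Pfas was lower in NZO on every array. Its only probe set, 1455496_at on chromosome 11, read 6.53, 6.75 and 6.74 in BKS replicates 1 to 3 and 4.06, 4.47 and 4.41 in NZO replicates 1 to 3. All 3 NZO arrays lay below all 3 BKS arrays, and the gap between the strains was far wider than the spread within either (6.67 ± 0.12 against 4.31 ± 0.22, SD, n = 3 each). The log2 fold change was -2.36 with a standard error of 0.17, or 5.14-fold lower. Its log2 fold change was the 28th lowest of the 18194 genes. It was the 25th lowest of the 76 that were lower in NZO at an adjusted p under 0.05. These ranks rest on the low NZO value and restate the contrast by which Pfas was chosen. In BKS the probe set stood at the 69.3rd to 71.6th percentile of the probe sets on its array and in NZO at the 18.1st to 33.5th percentile, and the array medians were 5.08 to 5.22. The files carry no detection call, so the size of the fold rests on a low NZO value. Pfas has no second probe set here against which to set this one. Probe sequences and the genomes of the strains were not used here, so the value is a difference in hybridization signal, and sequence differences between the strains under the probes were not tested. In whole liver, fewer cells of a type and less RNA per cell cannot be told apart.

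The arrays titled number 1, which are replicate 1 of each strain, stood apart from the other 4. They had a mean signal of 9.29 (BKS) and 8.17 (NZO) for the hybridization controls spiked into every sample, against 10.2 to 11.5 on the other 4 arrays. Pfas differed by -2.48 between the number 1 arrays and by -2.31 between the means of the other 2 arrays of each strain. The beta-actin controls, whose 3′ signal exceeds the 5′ signal when transcripts are cut short, gave an excess of 1.72 to 2.33 on BKS arrays against 1.29 to 1.39 on NZO arrays. This measure of RNA quality moved with strain, and its part in the Pfas result was not tested.

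**Figure D1:**
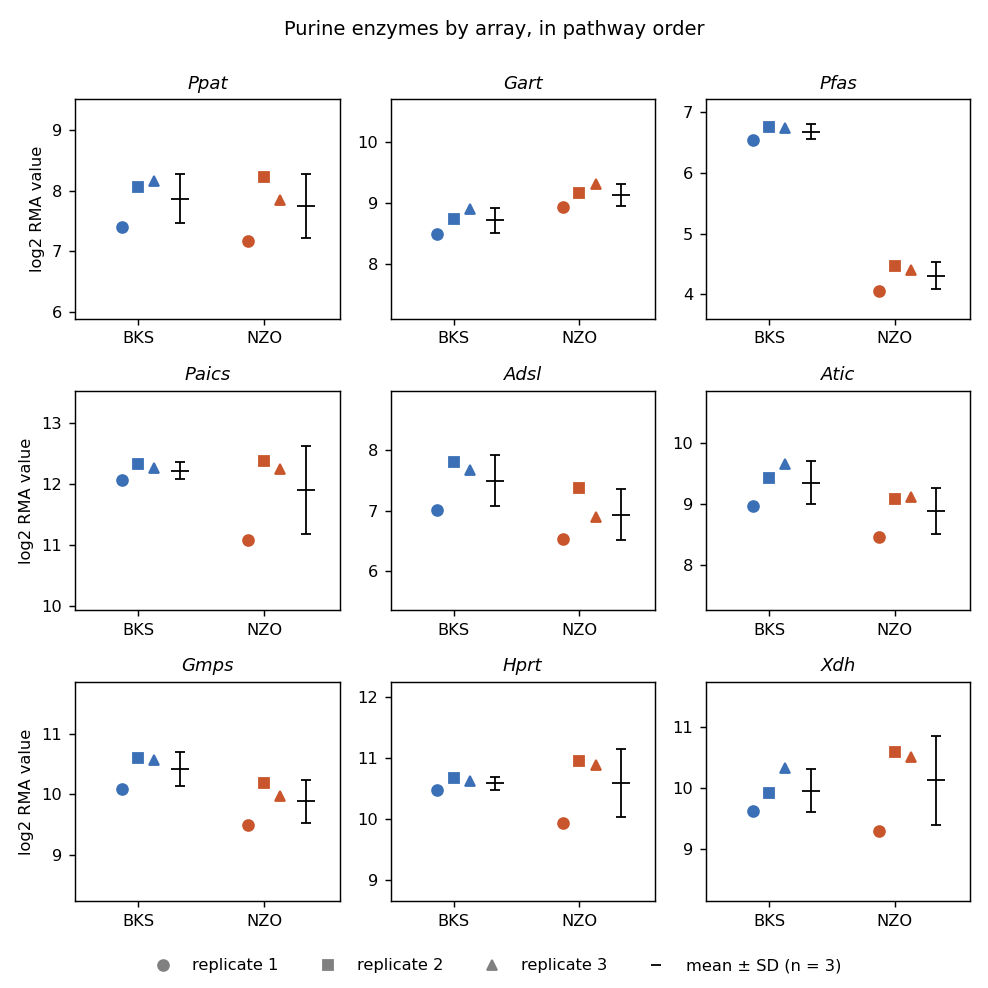
Log2 RMA value (y axis) of the 9 measured members in the 3 BKS (blue) and 3 NZO (orange) arrays, with mean ± SD (n = 3) in black and replicates by symbol. Pfas falls from 6.53 to 6.75 in BKS to 4.06 to 4.47 in NZO, while the strains overlap in every other panel except Gart.

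Of the 9 measured members, 1 was past the array-wide test, Pfas, and 8 were not. In the same fit 0.742% of the 18194 genes passed, 0.418% lower and 0.324% higher in NZO. Since the choice of the set used this contrast, nothing is read from that count. The 8 other members had log2 fold changes from -0.56 to 0.42 with a median of -0.22, against -0.03 over all genes. Over all 9 the median was -0.32, but 0.09 without NZO replicate 1, so it has no settled sign. Across all 19 probe sets the only one past the test in a fit over 45037 probe sets was that of Pfas, where 0.424% of probe sets passed.

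The entry enzyme Ppat was similar in both strains. Its brightest probe set, 1452831_s_at, read 7.40, 8.06 and 8.15 in BKS and 7.18, 8.21 and 7.84 in NZO, and the suffix _s_at means that its probes can match transcripts of more than 1 gene. The strains overlapped, with a log2 fold change of -0.12 (standard error 0.31). The other probe sets gave -0.04 and 0.03, the dimmer of them below the array medians on average (4.63).

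Gart, which supplies the substrate of Pfas, was read differently by its 4 probe sets. The brightest, 1424435_a_at, read 8.49, 8.73 and 8.90 in BKS and 8.93, 9.15 and 9.30 in NZO, a log2 fold change of 0.42 (standard error 0.18). The NZO arrays were all higher, though the lowest of them nearly met the highest BKS array. Probe set 1416283_at went the other way, with 8.31, 8.51 and 8.68 in BKS and 7.53, 7.98 and 8.49 in NZO (-0.50, standard error 0.25), and its strains overlapped. The remaining probe sets, 1424436_at and 1441911_x_at, gave -0.21 and -0.34. The mouse Gart locus is known to make a short transcript for the second step of the pathway beside the full-length one. Which transcript each probe set reads was not tested.

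Paics, which follows Pfas with an intervening step that Gart also carries, was read by 3 probe sets. The brightest, 1423564_a_at, read 12.06, 12.33 and 12.26 in BKS and 11.07, 12.38 and 12.24 in NZO. NZO replicate 1 alone was low, and the other NZO arrays lay close to the BKS arrays. The log2 fold change of -0.32 (standard error 0.34) thus came from the number 1 arrays, which differed by -0.99, while the other arrays differed by 0.01. The other probe sets gave -0.22 and -0.53, and without the number 1 arrays 0.06 and -0.34, so 1 of the 3 stayed lower in NZO. For Ppat as for Paics the sign was not stable, since cyclic loess scaling moved both to 0.03.

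Adsl, which splits off fumarate in both IMP and AMP synthesis, had a single probe set (1418372_at) with 7.01, 7.80 and 7.67 in BKS and 6.54, 7.37 and 6.89 in NZO. Its strain ranges overlapped and the log2 fold change was -0.56 (standard error 0.29). Atic, the last enzyme before IMP, read 8.96, 9.42 and 9.65 in BKS and 8.45, 9.08 and 9.11 in NZO with 1428506_at, or -0.46 (standard error 0.26), again with overlap. Its dimmer probe set 1452811_at showed the opposite, 5.63, 5.32 and 5.93 in BKS and 5.98, 6.60 and 6.29 in NZO, or 0.66 (standard error 0.22), without overlap. Gmps, which aminates XMP to GMP, read 10.09, 10.59 and 10.56 in BKS and 9.49, 10.19 and 9.98 in NZO with 1433567_at, or -0.53 (standard error 0.24). Its other probe sets averaged 4.58 and 4.24, below the array medians, and gave -0.25 and 0.12. Adsl, Atic and Gmps therefore each lay on the low side in NZO with their brightest probe set by 1.38-fold to 1.48-fold, and none passed. These 3 differed alike between the number 1 arrays (-0.48, -0.51 and -0.60) and between the others (-0.60, -0.44 and -0.49). Their size depended on scaling, since cyclic loess gave -0.47 for Adsl, -0.22 for Atic and -0.24 for Gmps.

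The salvage and breakdown enzymes lay near or above 0. Hprt (1448736_a_at) read 10.47, 10.67 and 10.62 in BKS and 9.94, 10.95 and 10.88 in NZO, with means of 10.59 in both strains. Xdh (1451006_at) read 9.61, 9.92 and 10.32 in BKS and 9.28, 10.59 and 10.51 in NZO, a log2 fold change of 0.17 (standard error 0.37). For both genes NZO replicate 1 was the lowest of the 6 arrays and NZO replicates 2 and 3 were the highest. The difference was -0.53 between the number 1 arrays and 0.27 between the others for Hprt, and -0.33 and 0.43 for Xdh.

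**Figure D2:**
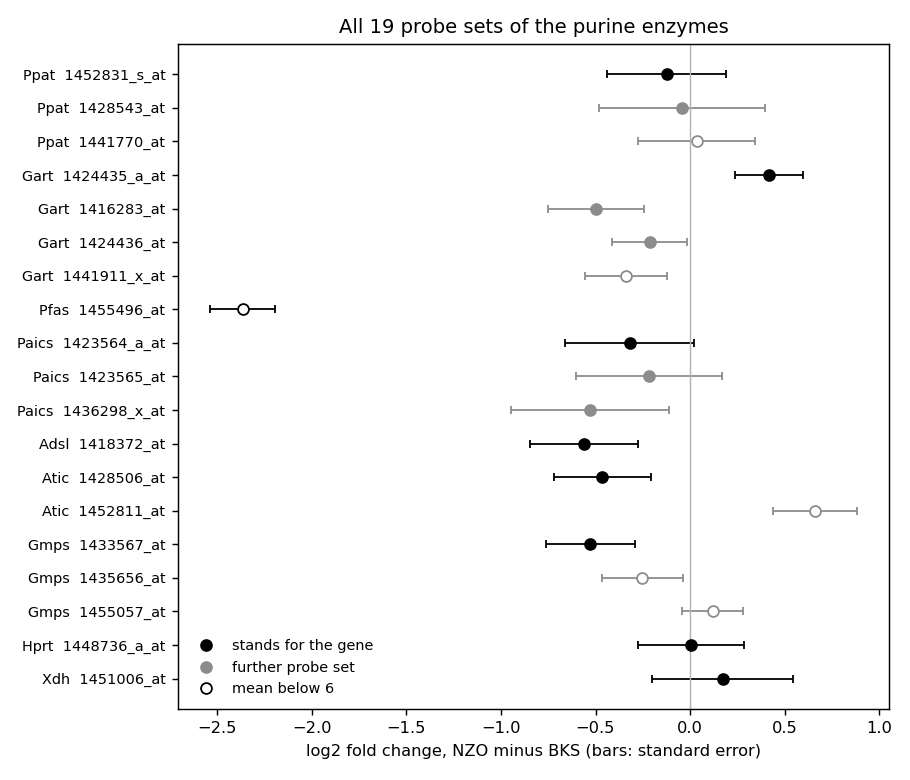
Log2 fold change (x axis, NZO minus BKS, bars show the standard error) of all 19 probe sets in pathway order, black where the probe set stands for its gene, grey for further probe sets and open where the mean over the 6 arrays is below 6. The Pfas probe set lies at -2.36, and the other 18 lie between -0.56 and 0.66.

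Strains did not overlap for 3 of the 19 probe sets (Pfas, 1424435_a_at of Gart and 1452811_at of Atic), and for 2 of the 9 members by their brightest probe set. Over the whole array the strains did not overlap for 15.3% of probe sets and 17.0% of genes. Of the 19 probe sets, 6 averaged below 6, among them that of Pfas.

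Within a strain, the members shared a low replicate 1, while the order of the other arrays varied from gene to gene. By their brightest probe sets, replicate 1 was the lowest array of its strain in both strains for all 9 members. The same held for 36.3% of all genes and for 55.1% of the 9622 genes with a mean of at least 6. Pfas took part in this, with its lowest BKS value in BKS replicate 1 and its lowest NZO value in NZO replicate 1. Not all further probe sets did, since 1428543_at of Ppat was lowest in NZO replicate 3 (5.40, against 5.70 in NZO replicate 1). Averaged over the 8 other members, the BKS arrays stood at 9.26, 9.69 and 9.77 and the NZO arrays at 8.86, 9.74 and 9.59, a strain difference of -0.18. When this mean was subtracted from Pfas on each array, BKS gave -2.73, -2.94 and -3.03 and NZO gave -4.80, -5.27 and -5.19. The offset between probe sets has no meaning of its own, but its shift between the strains was -2.19, with SDs of 0.15 in BKS and 0.25 in NZO (n = 3 each). Since Pfas was chosen by its strain difference and the mean of the others moved by only -0.18, this shift restates that choice and is no separate evidence.

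**Figure D3:**
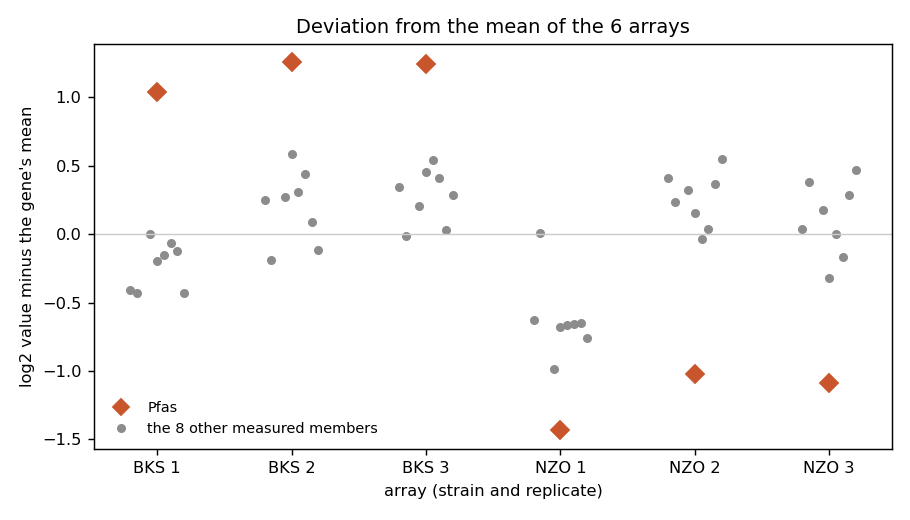
Log2 value minus the gene's mean over the 6 arrays (y axis) for Pfas (orange diamonds) and the 8 other measured members (grey) on each array. Pfas is the highest point on all 3 BKS arrays and the lowest on all 3 NZO arrays. By their brightest probe sets, all 9 members have their lowest value of each strain in replicate 1.

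The genes beside Pfas on chromosome 11 showed no such difference. Among the 5 measured genes on each side, none of 10 passed in limma (adjusted over 18194 genes), none had an unadjusted p under 0.05 and in none did the strains separate. Their log2 fold changes ran from -0.41 to 0.13. The nearest on one side was Rangrf (0.09, adjusted p = 0.918), a regulator of nuclear import through Ran, and on the other Ctc1 (-0.24, adjusted p = 0.707), a telomere maintenance protein. The most negative was Borcs6 (-0.41, adjusted p = 0.690). Beyond Rangrf, Slc25a35, Arhgef15, Odf4 and Rnf222 gave -0.24, -0.04, -0.02 and 0.06, and beyond Ctc1 the mitotic kinase Aurkb gave -0.09, and Tmem107 and Vamp2 gave -0.17 and 0.13. Slc25a35, Odf4 and Aurkb were dimmer than the median probe set on all arrays, which leaves little signal to compare. Second probe sets gave the opposite sign for Ctc1 (0.19), Tmem107 (0.28), Vamp2 (-0.29) and Arhgef15 (0.03), but not for Aurkb (-0.003). None of these second probe sets passed over all probe sets. The signs of Rnf222, Odf4, Arhgef15, Rangrf, Tmem107 and Vamp2 changed under some alternatives, all of them at values near 0.

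**Figure D4:**
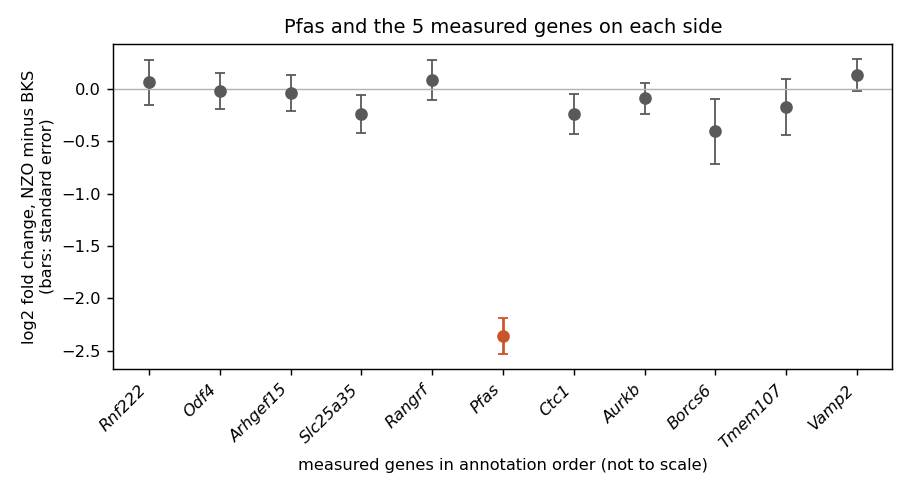
Log2 fold change (y axis, NZO minus BKS, bars show the standard error) of Pfas (orange) and the 5 measured genes on each side of it (grey), in annotation order and not to scale. The neighbours lie between -0.41 and 0.13 and Pfas at -2.36.

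Beside the other members, 14 further measured genes were read and none passed in limma (3 at an unadjusted p under 0.05, a mark that 11.4% of all genes reached). The largest difference was that of Ehd3, next to Xdh, which read 8.87, 8.03 and 7.86 in BKS and 9.81, 9.63 and 9.66 in NZO (log2 fold change 1.44, standard error 0.27, limma adjusted p = 0.0775). Its second probe set, of similar brightness, gave 0.70 (adjusted p = 0.429 over all probe sets). Without BKS replicate 1 it passed (adjusted p = 0.0187, with 0.00188 to 0.390 over all alternatives). It was singled out after its values were seen. Ehd3 is known from the sinusoidal endothelium of the liver. All 10 sinusoidal endothelial markers were above 0, with a median log2 fold change of 0.47 and none past the test (3 at an unadjusted p under 0.05). The mean level of that list was 6.61 to 6.89 in BKS and 6.91 to 7.76 in NZO, and its part in the Xdh and Ehd3 values was not tested. Without NZO replicate 2 the median of these markers was 0.21.

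The 5 genes whose level ran most like that of Pfas were found by the root mean square distance between mean-centred log2 profiles over the 6 arrays, among 9622 genes with a mean of at least 6. They were Ppm1m (0.103), a protein phosphatase, the DNA-binding protein Arid5b (0.222), Phlda1 (0.229), Itih5 (0.231), of the inter-alpha-trypsin inhibitor heavy chain family, and the thrombin receptor F2r (0.252). The median distance was 1.11. The distance contains the strain difference, and these 5 genes had log2 fold changes of -2.40, -2.14, -2.36, -2.41 and -1.93 in that order. Their likeness thus largely restates the contrast by which Pfas was chosen and is no separate evidence. Ppm1m read 8.89, 9.42 and 9.28 in BKS and 6.59, 6.87 and 6.93 in NZO, nearly parallel to Pfas at a brighter level. Among the members the closest to Pfas was Gmps, in place 1510 (0.926), followed by Adsl in place 1529, and the farthest was Gart, in place 8699 (1.39). These places, too, mainly follow the strain difference of each member.

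The rest of nucleotide metabolism, with regulators and cell cycle genes beside it, was read from 8 lists with 131 measured genes. Of these, 2 passed (1.53%, against 0.742% of all genes), both higher in NZO. An unadjusted p under 0.05 was reached by 17 of the 131, against 11.4% of all genes, and the unadjusted counts of each list below are to be read against that share. The 2 genes that passed were both on the list written for purine breakdown. Nt5e, the surface enzyme CD73 that turns AMP into adenosine, read 6.45, 6.18 and 6.09 in BKS and 8.47, 7.99 and 8.12 in NZO (log2 fold change 1.95, standard error 0.19, limma adjusted p = 0.00739). The strains were clearly apart on all arrays. Its other probe sets gave 4.46 (adjusted p = 0.00609 over all probe sets) and 0.34 (adjusted p = 0.544), so the size of the increase is uncertain. Aox3, an aldehyde oxidase of the same molybdenum enzyme family as Xdh, read 10.18, 10.44 and 10.38 in BKS and 11.92, 12.51 and 12.22 in NZO (log2 fold change 1.88, standard error 0.19, limma adjusted p = 0.00882). Neither call held without BKS replicate 2 (adjusted p = 0.0690 for Nt5e and 0.0696 for Aox3), without BKS replicate 3 (0.0580 and 0.0702) or without NZO replicate 3 (0.0550 and 0.0719), and both held under the other 12 alternatives.

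In the purine breakdown list 15 of 17 measured genes did not pass, and the median was 0.08. Of the 17, 6 had an unadjusted p under 0.05. Among those 6 the nucleotidases Nt5c2 and Nt5c3b were above 0, at 1.05 (limma adjusted p = 0.348) and 0.56 (adjusted p = 0.3). Both were dim, with means of 5.46 and 5.73 in BKS and 6.51 and 6.29 in NZO. A second probe set gave 0.78 for Nt5c2 and -0.21 for Nt5c3b. The nucleotidase Nt5c was below 0, at -0.91 (limma adjusted p = 0.355). Guanine deaminase (Gda) was at -0.50 (limma adjusted p = 0.351), while its second probe set gave -2.05 (adjusted p = 0.0561 over all probe sets), so the probe sets differ in size and neither passed.

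In the supply of PRPP, on which Ppat acts, none of 14 measured genes passed in limma (4 at an unadjusted p under 0.05), 11 were below 0 and the median was -0.50, against -0.03 over all genes. That median leaned on NZO replicate 1, without which it was -0.28, and it was -0.26 after cyclic loess. The PRPP synthetase Prps2 read 8.48, 8.65 and 8.57 in BKS and 7.15, 7.78 and 7.59 in NZO (log2 fold change -1.06, standard error 0.20, limma adjusted p = 0.0729). The strains did not overlap. With the number 1 arrays as a block it passed (adjusted p = 0.00746, with 0.00515 to 0.377 over all alternatives), while its dimmer probe sets gave -0.19 and -0.17. The isoform Prps1 was at -0.39 (adjusted p = 0.659), and at -0.07 without NZO replicate 1. In the pentose phosphate pathway, which makes ribose 5-phosphate, transketolase (Tkt) was at -0.58 (adjusted p = 0.326), and at -0.24 after cyclic loess.

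Among the other AMP, GMP and salvage enzymes none of 13 passed, and none had an unadjusted p under 0.05 (median -0.09). Impdh1, the isoform beside Impdh2 at the entry to GMP, was at 0.45 (adjusted p = 0.451) and the nucleoside diphosphate kinase Nme2 at -0.67 (adjusted p = 0.468).

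The suppliers of carbon and nitrogen did not pass in limma either. None of 19 folate genes did (1 at an unadjusted p under 0.05, median -0.06), with the serine hydroxymethyltransferase Shmt2 at -0.66 (adjusted p = 0.322) and the folate enzyme Mthfd2l at 0.47 (adjusted p = 0.559). Second probe sets gave 0.02 and -0.10 for these 2 genes. None of 11 nitrogen donor genes passed (1 at an unadjusted p under 0.05, median -0.13, or 0.08 without NZO replicate 1). Of these the aspartate aminotransferase Got1 was at 1.35 (adjusted p = 0.252) and the glutamine transporter Slc38a2 at -0.65 (adjusted p = 0.528). Got1 read 11.43, 11.03 and 11.60 in BKS and 11.74, 13.12 and 13.25 in NZO, so NZO replicate 1 lay close to BKS and the other NZO arrays well above. Without NZO replicate 1 it passed (log2 fold change 1.83, adjusted p = 0.0095), and over all alternatives its limma adjusted p ran from 0.00435 to 0.812.

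Pyrimidine genes, regulators and cell cycle genes gave no call in limma over all genes. None of 19 pyrimidine genes passed (1 at an unadjusted p under 0.05, median -0.05), with the uridine kinase Uck2 at -0.79 (adjusted p = 0.163) and the thymidylate kinase Dtymk at -0.49 (adjusted p = 0.492). A second probe set of Uck2 gave 0.54, the opposite sign. None of 19 regulators passed (1 at an unadjusted p under 0.05, median -0.15, or 0.0019 without NZO replicate 1). Myc, which is known to drive purine synthesis genes, read 6.40, 7.30 and 7.11 in BKS and 5.94, 6.44 and 6.23 in NZO (-0.73, adjusted p = 0.348), with overlap at BKS replicate 1, and Mlxip was at -0.30 (adjusted p = 0.586). None of 19 cell cycle genes passed (3 at an unadjusted p under 0.05, median 0.25), with the replication helicase subunit Mcm7 at -0.81 (adjusted p = 0.168) and Rrm2, a subunit of ribonucleotide reductase, at 0.90 (adjusted p = 0.3). A second probe set gave -0.17 for Mcm7 and 1.16 for Rrm2, the latter past the test over all probe sets (adjusted p = 0.0344). In that list 12 of the 19 averaged below 6, so most of it lay at dim levels.

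**Figure D5:**
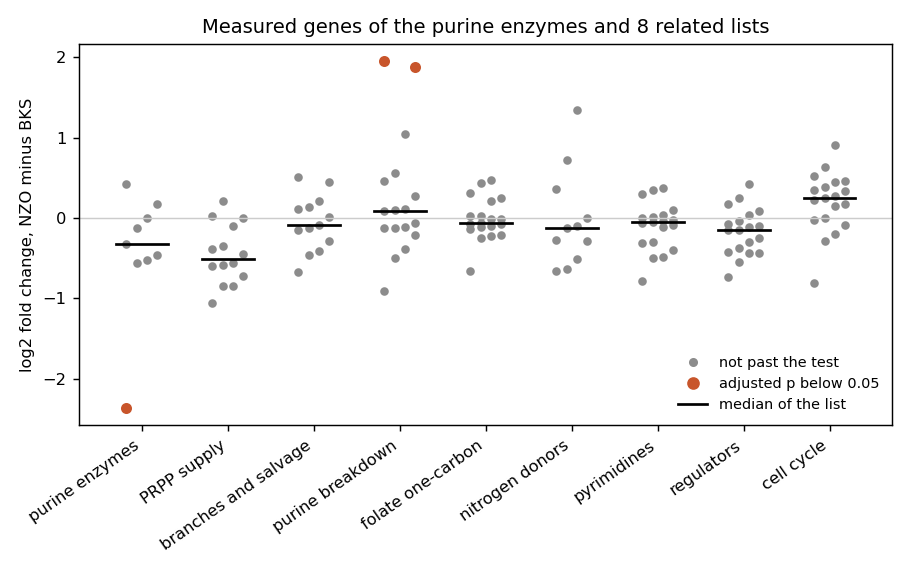
Log2 fold change (y axis, NZO minus BKS) of the 9 purine enzymes and of the 131 measured genes of 8 related lists, with the median of each list as a bar and genes at an adjusted p below 0.05 in orange. The orange points are Pfas at -2.36 and, in the purine breakdown list, Nt5e at 1.95 and Aox3 at 1.88. Pfas was chosen by this same contrast, so its mark is no support.

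The tissue label was checked on marker lists. The 9 measured hepatocyte markers averaged 14.13 to 14.15 per array in BKS and 13.25 to 14.17 in NZO, near the top of the scale, with 8 of 9 below 0 and a median log2 fold change of -0.34. This difference came from NZO replicate 1, without which 5 of 9 were below 0 and the median was -0.0063. Among 64 measured markers of 9 cell types none passed in limma (7 at an unadjusted p under 0.05, against 11.4% of all genes). The medians of the other lists were 0.03 for Kupffer cells, 0.02 for stellate cells, 0.11 for cholangiocytes and 0.09 for lymphocytes. These medians hide high single values on NZO replicate 1. There the lymphocyte marker Cd8a read 9.55, against 6.41 and 6.70 on the other NZO arrays. The cholangiocyte marker Epcam read 9.78, against 7.07 and 7.29, and its dimmer probe set gave a log2 fold change of -0.09. No other marker of these lists rose as far there, and the cause was not tested. The medians were 0.17 for neutrophils, 0.16 for adipocytes and 0.14 for erythroid cells. The Kupffer cell median was not settled, at 0.57 without the number 1 arrays and -0.12 without NZO replicate 2. The stellate cell median was 0.21 and -0.10 in the same settings.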

How the data were processed

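Liver RNA of 6 samples was labelled from 8 ug of total RNA per sample and hybridized to 1 array each, per the labels' protocols. The authors deposited 1 log2 value per probe set and array. The submitters' processing notes name RMA and Affymetrix Expression Console. Versions, and which arrays were normalized together, are not given in the sources used here. Arrays carry no read depth, and their number limits the precision. Nothing says that the 3 arrays of a strain are separate animals; if not, p-values cover only the spread between these arrays.

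The platform annotation gave the gene names (34945 with 1 symbol, 932 with several and left unnamed, 9160 unlisted), and 64 control probe sets were left out. A gene was represented by its probe set of highest mean. The strain contrast was fitted in limma 3.58.1 (R 4.3.3) without covariates and tested by eBayes, two-sided, with p-values Benjamini-Hochberg adjusted over 18194 genes, with calls at 0.05. Further probe sets of the members were read from a fit over 45037 probe sets. The fit was checked on simulated data with independent noise for each value. No shift shared by the genes of an array was simulated, so that check does not cover array differences. Replicate numbers follow accession order and pair nothing. Neighbours follow the gene order of GRCm38.p6, which also gave the promoter windows. For the array values it was used for names and order only.

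The members and lists were chosen with earlier results of these data known. Named genes are all members, up to 4 genes past the test per pathway list or else the 2 of smallest p, the neighbours of Pfas, and the 5 profiles nearest to Pfas. Gda, Nt5c, Nt5c2, Nt5c3b, Prps1, Ehd3, Cd8a and Epcam were added after their values were seen. Marker lists are otherwise given by counts and levels only. Alternatives changed the arrays, the block, the normalization, the filter, the probe set, the variance model and the weights. List medians under other arrays and normalizations were added after seeing the data.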

Additional observations from a re-analysis of the deposited data

How the results depend on the processing

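The log2 fold change of Pfas, by which it was chosen, was -2.44 to -2.24 over the 14 alternatives that kept it, which describes the same 6 arrays and is no independent support. It averages below 6, so a filter on genes with a mean of at least 6 removes it and leaves 0 members past the test. No other member passed under any alternative. Across all 19 probe sets, read under the array and normalization alternatives as a check chosen after seeing the data, 1 passed each time. Its shift against the other members was -2.42 after quantile normalization of the deposited values, -2.50 after cyclic loess and -2.33 to -2.10 with 1 array left out.

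The count of genes past the test was 135. It was 27 to 258 with 1 array left out, 912 without the number 1 arrays, 1192 with these as a block, 421 after quantile normalization, 429 after cyclic loess, 281 with an intensity trend and 1296 with array weights. The 2 genes of the other lists became 0 to 3 with 1 array left out, 10 without the number 1 arrays and 10 with the block, 4 with either normalization and 11 with weights. Prps2, Tkt, Got1, Nt5c, Uck2, Myc, Mcm7 and Ehd3 each passed under at least 1 of these alternatives. The cause was not tested.

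Gart turned from 0.42 to -0.16 and Atic from -0.46 to 0.10 with the mean of all probe sets, and Gart was at 0.64 after quantile normalization and 0.66 after cyclic loess. Further signs turned for genes that passed neither way. With the mean of all probe sets, Slc38a2 was at 0.083, Arhgef15 at 0.059, Tmem107 at 0.010 and Vamp2 at -0.078. Without the number 1 arrays Rnf222 was at -0.034 and Vamp2 at -0.018. With 1 array left out, Rnf222 ran from -0.076 to 0.28, Odf4 from -0.13 to 0.060, Arhgef15 from -0.18 to 0.074 and Rangrf from -0.043 to 0.26. List medians near 0 turned too without NZO replicate 1, to 0.17 for the other AMP, GMP and salvage enzymes, 0.19 for folate, 0.02 for pyrimidine genes and -0.07 for adipocyte markers.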
